A study of Sparus aurata with 8 samples.

Results

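Tubulins and the proteins that fold or chemically modify them were followed through the last stage of sperm formation in the gilthead seabream (*Sparus aurata*), a marine teleost. A feature of the count table was taken as a member if it was protein-coding and if its product name started with tubulin or contained tubulin polyglutamylase, tubulin monoglycylase or tubulin-specific. This rule, which used names and no measured value, found 52 of 31501 protein-coding features (197399 features in all). By product name alone they were 19 alpha-tubulins, 11 beta-tubulins, 3 gamma-, delta- or epsilon-tubulins, 7 folding cofactors (chaperones), 2 tyrosine ligases, 8 polyglutamylases and 2 monoglycylases.

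RNA was counted in 4 libraries of haploid germ cells (HGC) and 4 libraries of ejaculated spermatozoa (SPZ_EJ). HGC were secondary spermatocytes and spermatids that had been stained and sorted by flow cytometry from the testis, and SPZ_EJ were collected by abdominal pressure from males that released sperm naturally and were not sorted. The fish were adult captive males in their reproductive season, sedated with phenoxyethanol for sperm collection or anaesthetized before the testis was taken, and each library was made from a pool of 3. A library therefore averages several animals, and the number of males the methods give would fill the pools of a single group, so HGC and SPZ_EJ pools may share males, although no label ties one pool to another. The methods of the study describe lower RNA integrity in SPZ_EJ than in HGC, so cell stage, collection and RNA quality cannot be told apart in this design.

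Microtubules are built from heterodimers of alpha- and beta-tubulin, and gamma-tubulin starts their assembly. The core of the sperm flagellum, the axoneme, is made of microtubules, as is, in mammals, the manchette that surrounds the nucleus of the elongating spermatid. Enzymes of the tubulin tyrosine ligase-like (TTLL) family add glutamate or glycine chains to the tails of axonemal tubulin, and these modifications are abundant in cilia and flagella.

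Levels are given as CPM, each feature's counts relative to the scaled total of its library, after scaling by TMM, a method that sets libraries on a common scale by the bulk of their features. CPM is not divided by transcript length, so rankings, sums and ratios that set different features side by side also depend on that length. Only RNA was counted, so no value here is a protein level. Changes are log2 fold changes of SPZ_EJ over HGC by edgeR's quasi-likelihood test, positive where SPZ_EJ was higher, and p-values were adjusted by the Benjamini-Hochberg method over all 21375 features that passed the filter on low counts. Calls needed both a log2 fold change beyond 1 in size and an adjusted p under 0.01. Values after ± are SE for a log2 fold change and SD of 4 libraries for a level.

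Of the 52 members, 50 passed the filter. Among these, 12 were called higher in SPZ_EJ, 29 were called lower and 9 were not called, of which 4 had an unadjusted p below 0.05. Over all 15302 tested mRNA features, 55.8% were called, 23.9% higher and 31.9% lower. The share called lower among the tubulin-related features, 29 of 50, therefore lies above the background, and the share called higher, 12 of 50, lies near it. The values of SPZ_EJ and HGC did not overlap for 29 members that were lower and 13 that were higher in SPZ_EJ, where 38.0% and 27.6% of the tested mRNA features gave such separations. The median log2 fold change was -2.47 over the 50 members and -0.29 over the tested mRNA features. Scaling by library size alone moved the median of all features up by 0.73, gave 4659 higher and 3436 lower calls among mRNA features in place of 3659 and 4881, and gave 16 higher and 27 lower calls among the members.

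The members together held 4.33, 4.82, 4.36 and 4.05% of the mRNA counts in HGC 1 to 4 and 0.560, 0.520, 0.512 and 0.648% in SPZ_EJ 1 to 4. These are means of 4.39 ± 0.319% (SD, n = 4) in HGC and 0.560 ± 0.0621% (SD, n = 4) in SPZ_EJ, a ratio of 7.84 with no overlap between the groups. Most of this difference lay in alpha- and beta-tubulin. Alpha-tubulin features summed to 12021 ± 2241 CPM in HGC and 1051 ± 64.4 CPM in SPZ_EJ, and beta-tubulin features to 32149 ± 3911 and 1536 ± 202 CPM. These CPM sums rest on TMM-scaled totals and the percentages on mRNA counts, so their falls differ in size. By mRNA percentage, HGC exceeded SPZ_EJ 5.78-fold for alpha-tubulin and 10.6-fold for beta-tubulin. By CPM, HGC exceeded SPZ_EJ 15.4-fold for all members, 11.4-fold for alpha-tubulin and 20.9-fold for beta-tubulin. In bulk libraries fewer cells of a type and less RNA per cell cannot be told apart. CPM after this scaling is neither a plain share of a library nor a number of molecules per cell.

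Libraries held 19865716 to 30645027 counts in HGC and 15395220 to 17886675 in SPZ_EJ, of which mRNA features took 83.0% to 86.0% and 52.4% to 81.0%. SPZ_EJ replicate 2 had the lowest of these shares, and SPZ_EJ replicate 1 the highest among the spermatozoa. Without SPZ_EJ replicate 1 there were 13 members called higher and 29 called lower, and without SPZ_EJ replicate 2 there were 12 and 29. Meiosis and spermatid markers (12 features) summed to 6839.5, 4363, 6357 and 5548 CPM in HGC 1 to 4 and 118, 274, 291 and 174 CPM in SPZ_EJ 1 to 4, 8 of 11 tested were called lower, and none was at 0 in either group. Leukocyte markers (25 features) summed to 182, 59.0, 102 and 123 CPM in HGC and 7117, 4935, 3951 and 2967 CPM in SPZ_EJ. The highest of these sums was that of SPZ_EJ replicate 1 and the lowest among spermatozoa that of SPZ_EJ replicate 4. The largest single part in SPZ_EJ was a class II histocompatibility gamma chain (Saurata1B048884), at 3988, 2601, 1849 and 1430 CPM in SPZ_EJ 1 to 4. Of 20 tested, 18 were called higher, and 2 were not called, with log2 fold changes of -1.14 and -0.77. At 0 in HGC were 3 of the 25, a lysozyme g and 2 granzyme features. Of these, the lysozyme g (Saurata1B030904) had 1 count in SPZ_EJ, and 1 granzyme (Saurata1B031691) was at 0 there too. Duct epithelium markers (59 features) summed to 887 to 1351 CPM in HGC and 972 to 2105 CPM in SPZ_EJ. Where 23.9% of all tested mRNA features were called higher and 31.9% lower, 7 of 21 tested duct markers were called higher and 1 lower. That lower one, Mucin-2 (Saurata1B027499), held most of the HGC sum. The other 58 features summed to 157, 118, 96.4 and 108 CPM in HGC 1 to 4 and 2006, 1158, 1098 and 909 CPM in SPZ_EJ 1 to 4. In SPZ_EJ they were led by keratin-18 (Saurata1B045583) and keratin-8 (Saurata1B055739). In HGC 1 to 3 another keratin-8 feature (Saurata1B037713), which was not called, was highest at 70.8, 85.6 and 47.5 CPM. Of the 59, 20 were at 0 in HGC (mostly claudins, among them claudin-4) and 7 were at 0 in SPZ_EJ. Hemoglobins and other erythrocyte markers (10 features) summed to 23.2 to 682 CPM in HGC and 9.55 to 26.5 CPM in SPZ_EJ, with 1 hemoglobin subunit beta feature at 0 in both groups. Testis somatic markers (4 features) stayed at or below 3.77 CPM in every library, with 2 steroidogenic acute regulatory features at 0 in SPZ_EJ. None of the 4 passed the filter. They cover only steroid synthesis and the follicle-stimulating hormone receptor, so their levels do not show that somatic cells were absent. From microscopy and the absence of ribosomal RNA peaks, the study judged its spermatozoa samples to hold almost no other cells. Marker RNA alone does not show that cells of these types were present. Their part in the changes described here was not tested.

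**Figure D1:**
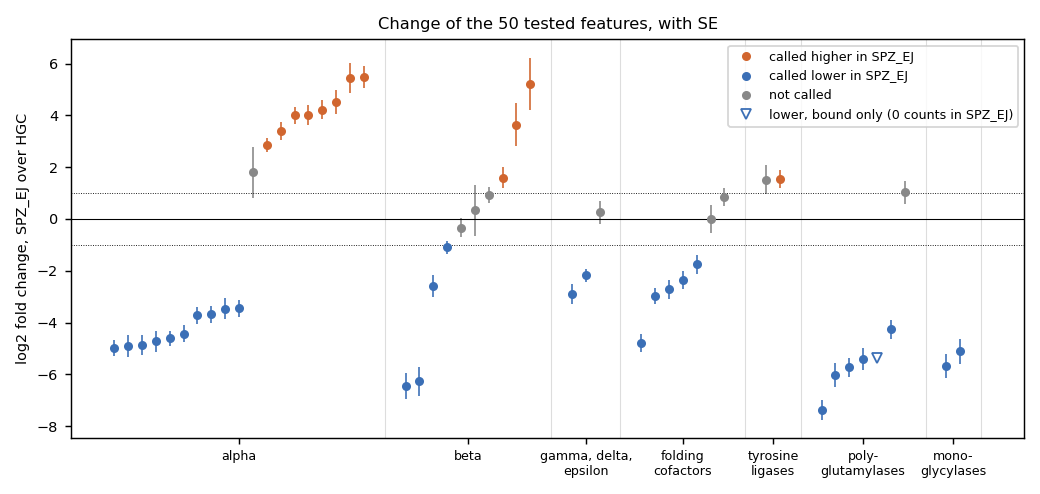
Log2 fold change of SPZ_EJ over HGC (y axis) for the 50 tested tubulin-related features, grouped by class along the x axis and ordered by size within a class. Points are estimates of edgeR's quasi-likelihood fit with their SE, colours give the call, dotted lines mark 1 and -1, and the open triangle is a bound for a feature with 0 counts in SPZ_EJ. Alpha-tubulins fall into 10 called lower and 8 called higher with 1 not called, while no folding cofactor, polyglutamylase or monoglycylase was called higher.

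Alpha-tubulin split into a set of features that fell in spermatozoa and a set that rose. All 19 features were tested, and over all tested mRNA features 31.9% were called lower and 23.9% higher. Of the 19, 10 were called lower with log2 fold changes of -4.98 to -3.46, 8 were called higher with 2.86 to 5.48, and 1 was not called. Every alpha-tubulin that was called showed no overlap between the 4 HGC and the 4 SPZ_EJ libraries. A call by itself favours such a separation. Of all tested mRNA features, 38.0% were separate with SPZ_EJ lower and 27.6% with SPZ_EJ higher. Alpha-tubulin is the subunit that carries the terminal tyrosine and the acetylated lysine of microtubules, and animals have several genes for it with nearly identical proteins.

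The alpha-tubulin feature with the most counts was Saurata1B052675 (alpha-1 chain), at 4712, 3834, 3807 and 3085 CPM in HGC 1 to 4 and 170.5, 201, 172 and 173 CPM in SPZ_EJ 1 to 4. It was 21.6-fold lower in SPZ_EJ (log2 fold change -4.43 ± 0.34, adjusted p = 1.94e-06). The HGC values spanned a wide range and those of SPZ_EJ a narrow one, apart from SPZ_EJ replicate 2, which lay above the other three. Saurata1B053995 (alpha-1B chain) was at 3045, 2599.8, 2438 and 2177 CPM in HGC and 229, 208, 178 and 162 CPM in SPZ_EJ (log2 fold change -3.72 ± 0.32, adjusted p = 3.59e-06). Saurata1B022652, named alpha chain without a number, was at 3129.5, 2703, 2531 and 1709.6 CPM in HGC and 102, 139.9, 81.5 and 56.5 CPM in SPZ_EJ (log2 fold change -4.73 ± 0.41, adjusted p = 4.14e-06). Saurata1B026824 (alpha chain) was at 1664, 1353, 1304 and 887 CPM in HGC and 41.0, 66.5, 46.0 and 22.4 CPM in SPZ_EJ. In both of these the lowest library of each group was replicate 4.

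The other features that fell showed the same separation of the groups. Saurata1B015035 (alpha-1B chain) measured 682, 608, 579.6 and 421 CPM in HGC and 30.9, 32.5, 63.6 and 81.4 CPM in SPZ_EJ, and unlike the features above it was highest in SPZ_EJ replicates 3 and 4. Saurata1B049702 (alpha chain) measured 494, 412, 369 and 414 CPM in HGC and 14.9, 18.97, 17.2 and 18.1 CPM in SPZ_EJ. Saurata1B056828 (alpha-1B chain) measured 384, 296, 382 and 212 CPM in HGC and 30.1, 36.3, 27.6 and 22.2 CPM in SPZ_EJ. These 2 alpha-1B features had the smallest falls of the set, with a log2 fold change of -3.46 in each. Saurata1B013117 (alpha chain) measured 323, 291, 223 and 141 CPM in HGC and 17.5, 18.3, 19.1 and 21.2 CPM in SPZ_EJ. Saurata1B057189 (alpha chain) measured 155, 151, 106 and 71.7 CPM in HGC and 3.65, 4.74, 5.52 and 2.74 CPM in SPZ_EJ. Both were highest in HGC replicate 1 and lowest in HGC replicate 4. Saurata1B041165 (alpha-4A chain) measured 75.8, 63.0, 55.0 and 73.8 CPM in HGC and 2.26, 2.47, 1.84 and 1.87 CPM in SPZ_EJ, 31.6-fold lower (log2 fold change -4.98 ± 0.31, adjusted p = 1.44e-06), the largest fall among the alpha-tubulins.

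The other 8 alpha-tubulin features with a call rose in spermatozoa. Saurata1B042011 (alpha chain) was at 6.86, 3.94, 2.87 and 5.35 CPM in HGC 1 to 4 and 94.2, 95.6, 88.3 and 76.6 CPM in SPZ_EJ 1 to 4, 18.7-fold higher (log2 fold change 4.22 ± 0.35, adjusted p = 2.92e-06). Saurata1B032456 (alpha-1D chain) was at 10.8, 9.20, 8.35 and 12.4 CPM in HGC and 83.0, 56.2, 77.4 and 78.3 CPM in SPZ_EJ, 7.24-fold higher (log2 fold change 2.86 ± 0.28, adjusted p = 9.20e-06). The 4 spermatozoa libraries lay close together for Saurata1B042011, while for the alpha-1D feature SPZ_EJ replicate 2 lay below the others. The rise of the alpha-1D feature was the smallest of the set. Pairs of features shared a name and a direction. Of the alpha-8 chains, Saurata1B046166 went from 5.07, 2.55, 2.62 and 5.58 CPM in HGC to 83.5, 49.1, 64.7 and 56.3 CPM in SPZ_EJ and Saurata1B022558 from 4.21, 3.24, 4.03 and 6.74 to 52.1, 32.4, 50.9 and 57.1 CPM. Of the features named alpha-2/alpha-4 chain, Saurata1B030017 went from 3.14, 3.24, 2.20 and 2.62 to 47.6, 30.4, 52.3 and 49.3 CPM and Saurata1B045086 from 0.571, 0.463, 0.374 and 0.523 to 16.7, 8.51, 11.8 and 7.50 CPM.

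The largest rises were those of a pair of features named alpha chain. Saurata1B057082 was at 0.50, 0.521, 0.332 and 0.349 CPM in HGC and 22.9, 22.7, 17.7 and 13.0 CPM in SPZ_EJ, 44.6-fold higher (log2 fold change 5.48 ± 0.43, adjusted p = 2.31e-06). Saurata1B033583 was at 1.93, 0.405, 0.623 and 2.44 CPM in HGC and 61.2, 69.3, 59.4 and 44.5 CPM in SPZ_EJ, 43.7-fold higher (log2 fold change 5.45 ± 0.57, adjusted p = 1.29e-05). The lowest SPZ_EJ library was replicate 4 in both, and it still lay far above every HGC library. The single alpha-tubulin that was not called, Saurata1B054866, was at 1.14, 0.868, 0.872 and 6.28 CPM in HGC and 0.940, 1.56, 10.2 and 19.3 CPM in SPZ_EJ (log2 fold change 1.80 ± 0.98, adjusted p = 0.122). Its HGC replicate 4 and its SPZ_EJ replicates 3 and 4 were high and the other 5 libraries were low, so the groups overlapped.

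**Figure D2:**
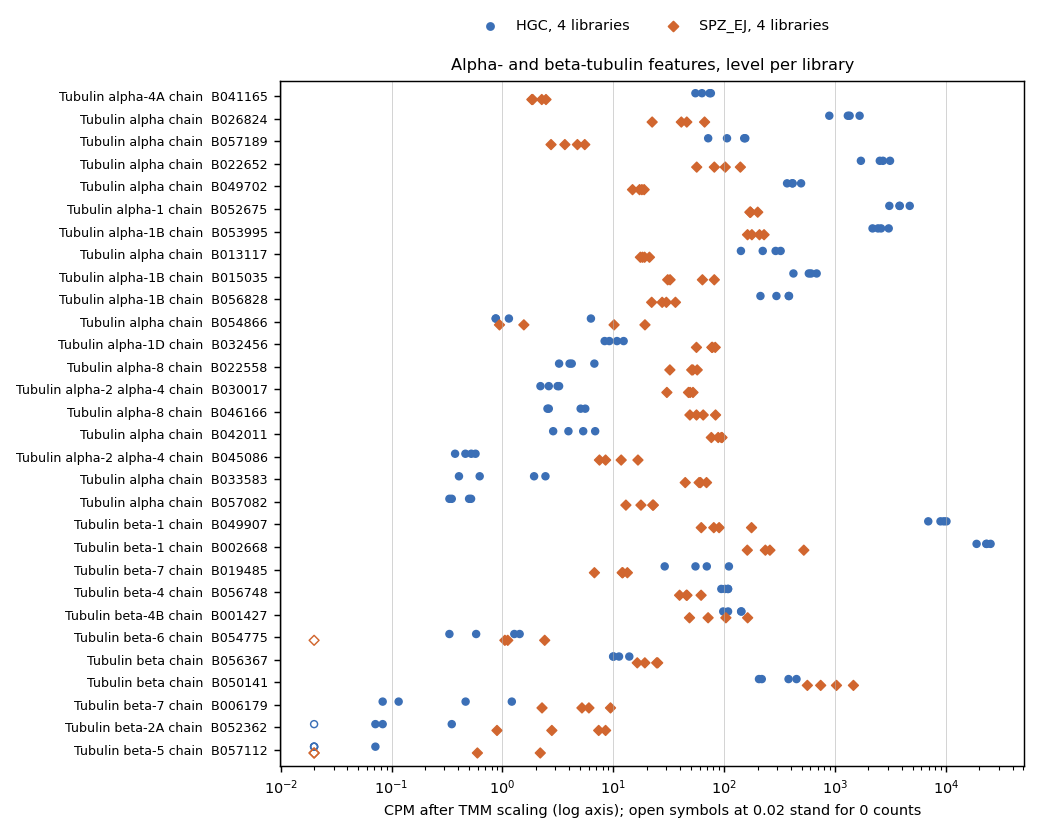
Level of each alpha- and beta-tubulin feature in CPM after TMM scaling (x axis, log scale) in every library, 1 row per feature with its product name. Circles are the 4 HGC libraries and diamonds the 4 SPZ_EJ libraries, and open symbols stand for 0 counts. The groups are separate in all 18 called alpha-tubulins, 10 with HGC to the right and 8 with SPZ_EJ to the right, while beta-4B and beta-6 overlap. Of all tested mRNA features, 38.0% were separate with SPZ_EJ lower and 27.6% with SPZ_EJ higher.

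The make-up of the alpha-tubulin counts therefore differed between the groups. The 8 features that rose held 0.225, 0.191, 0.181 and 0.390% of all alpha-tubulin counts in HGC 1 to 4 and 41.8, 33.3, 40.4 and 39.7% in SPZ_EJ 1 to 4. The 10 features that fell still held 58.1 to 66.6% of the alpha-tubulin counts of a spermatozoa library. In CPM, the features that rose summed to 28.5 ± 7.12 in HGC and 408 ± 43.3 in SPZ_EJ, and those that fell to 11990.0 ± 2245 and 636 ± 70.0. Per library the features that rose summed to 461, 364, 422 and 382 CPM in SPZ_EJ 1 to 4, where the leukocyte markers summed to 7117, 4935, 3951 and 2967 CPM and the duct markers other than Mucin-2 to 2006, 1158, 1098 and 909 CPM. The part of leukocytes and duct cells in this rise was not tested. These sets were formed by the calls themselves, so the shares describe the data and test nothing, and shares of counts also depend on transcript length.

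Features that shared a product name mostly shared a direction, with exceptions among alpha- and beta-tubulins. The names shared by more than 1 feature numbered 11 and covered 30 features. For 8 of the 11 names every feature was called in 1 direction, for 2 names the calls went both ways, and for 1 name a feature was called and the other was not. The plain name alpha chain stood for 9 features, of which 3 were called higher, 5 lower and 1 not. RSEM, the program that assigned the reads, divides reads that fit several transcripts among them, so the counts of near-identical tubulin copies are uncertain as single values. How alike these copies are in sequence was not tested, and the sums over a class do not depend on that division within it.

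**Figure D3:**
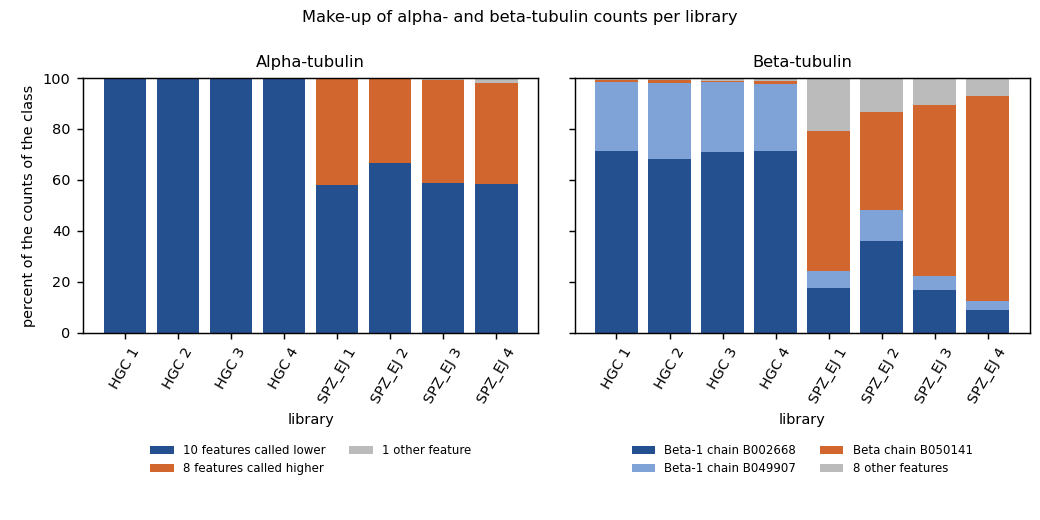
Percent of the alpha-tubulin counts (left) and of the beta-tubulin counts (right) of each library (x axis) that fell on the named features or sets, as stacked bars that start at 0 and end at 100. In HGC the alpha-tubulin bars are almost wholly the 10 features called lower and the beta-tubulin bars almost wholly the 2 beta-1 features. In SPZ_EJ the 8 alpha-tubulins called higher take 33.3 to 41.8% and the beta chain Saurata1B050141 takes 38.7 to 80.6%.

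Beta-tubulin changed mainly through the fall of 2 beta-1 features. Of 11 features 10 were tested, 4 were called lower, 3 were called higher and 3 were not called. The shares of 4 of 10 lower and 3 of 10 higher lie near the 31.9% and 23.9% of all tested mRNA features. Beta-tubulin binds the exchangeable nucleotide of the dimer and lies at the growing end of the microtubule. Saurata1B002668 (beta-1 chain) was at 25263, 23091, 23349.8 and 18894 CPM in HGC 1 to 4 and 235, 522, 258 and 162 CPM in SPZ_EJ 1 to 4, 77.0-fold lower (log2 fold change -6.27 ± 0.56, adjusted p = 4.66e-06). Saurata1B049907 (beta-1 chain) was at 9563, 10111, 8926 and 6926 CPM in HGC and 90.0, 176, 80.6 and 62.1 CPM in SPZ_EJ, 86.9-fold lower (log2 fold change -6.44 ± 0.51, adjusted p = 2.27e-06). SPZ_EJ replicate 2 was the highest spermatozoa library and replicate 4 the lowest for both, and every HGC library lay far above them. These features made up nearly all of the class in HGC, where they held 71.5, 68.1, 71.1 and 71.3% and 27.1, 29.8, 27.2 and 26.1% of the beta-tubulin counts in HGC 1 to 4.

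In every spermatozoa library the most beta-tubulin counts fell on a feature named beta chain, Saurata1B050141. It was at 218, 449, 206 and 380.4 CPM in HGC and 742, 562, 1029 and 1464 CPM in SPZ_EJ, 3.03-fold higher (log2 fold change 1.60 ± 0.40, adjusted p = 0.00376). All 4 SPZ_EJ libraries lay above all 4 HGC libraries, but HGC replicates 2 and 4 and SPZ_EJ replicate 2 came within a small distance of each other. The call was lost without HGC replicate 1, 3 or 4 (adjusted p of 0.0264, 0.0297 and 0.0139) and without the filter on low counts (adjusted p = 0.0760). Its share of the beta-tubulin counts was 0.617, 1.32, 0.627 and 1.44% in HGC 1 to 4 and 55.2, 38.7, 67.3 and 80.6% in SPZ_EJ 1 to 4. In SPZ_EJ 1 to 4 the leukocyte markers summed to 7117, 4935, 3951 and 2967 CPM. Duct markers other than Mucin-2 summed to 2006, 1158, 1098 and 909 CPM. Both sums were highest in replicate 1 and lowest in replicate 4, and this beta chain was highest in replicate 4 and lowest in replicate 2. An order of 4 libraries cannot show which cells a feature came from. Single duct markers differed in their order. Claudin-7-B (Saurata1B031713), at 1.39, 3.05, 82.1 and 172 CPM, and cadherin-1 (Saurata1B017297), at 29.5, 9.10, 19.97 and 47.4 CPM, were highest in replicate 4. Keratin-8 (Saurata1B055739), at 784, 258, 252 and 152 CPM, and claudin-11 (Saurata1B032042), at 287, 60.9, 80.5 and 69.7 CPM, were highest in replicate 1. Keratin-18 (Saurata1B045583), at 517, 694, 499 and 342 CPM, was highest in replicate 2 and lowest in replicate 4. These single markers were chosen with their values known. The part of either cell type in the level of this beta chain was not tested. The beta-tubulin counts were 2.41, 2.75, 2.78 and 2.87 times the alpha-tubulin counts in HGC 1 to 4 and 1.22, 1.33, 1.46 and 1.89 times in SPZ_EJ 1 to 4, with no overlap.

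The remaining beta-tubulins changed in both directions. Saurata1B019485 (beta-7 chain) was at 55.1, 29.1, 110.2 and 69.6 CPM in HGC and 12.1, 13.4, 6.75 and 12.0 CPM in SPZ_EJ (log2 fold change -2.57 ± 0.42, adjusted p = 2.76e-04). Saurata1B006179, also named beta-7 chain, was at 1.21, 0.116, 0.0831 and 0.465 CPM in HGC and 6.02, 2.27, 9.43 and 5.21 CPM in SPZ_EJ (log2 fold change 3.65 ± 0.84, adjusted p = 0.0025). These 2 features share a name and were called in opposite directions, and the call of the second was lost without HGC replicate 2 or 4 (adjusted p of 0.0107 and 0.0106) and its log2 fold change was 4.50 without HGC replicate 1. Saurata1B052362 (beta-2A chain) was at 0.0714, 0, 0.0831 and 0.349 CPM in HGC and 7.38, 8.51, 0.893 and 2.79 CPM in SPZ_EJ (log2 fold change 5.22 ± 1.01, adjusted p = 8.28e-04), with 1, 0, 2 and 6 counts in HGC 1 to 4 and 212, 131, 16 and 61 in SPZ_EJ 1 to 4. Its spermatozoa libraries fell into a higher pair, replicates 1 and 2, and a lower pair, and the log2 fold change was 4.62 without HGC replicate 2 and 6.17 without HGC replicate 4. Saurata1B056748 (beta-4 chain) was at 94.2, 102, 108 and 108 CPM in HGC and 61.9, 45.7, 46.1 and 39.6 CPM in SPZ_EJ (log2 fold change -1.09 ± 0.25, adjusted p = 0.00239). The groups did not overlap, but this change was the smallest called among the members, and the call was lost in 9 of 19 alternatives, with adjusted p of 0.0115 to 0.416, among them the fits without SPZ_EJ replicate 3 (0.0226) and replicate 4 (0.0207).

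The 4 other beta-tubulins were not called or not tested, and were chosen for description after their values were seen. Saurata1B001427 (beta-4B chain) was at 142, 108, 143 and 98.0 CPM in HGC and 163, 104, 71.6 and 48.6 CPM in SPZ_EJ, with a log2 fold change of -0.35 ± 0.37 (adjusted p = 0.414). The second feature named beta chain, Saurata1B056367, was at 13.9, 9.96, 11.3 and 10.1 CPM in HGC and 24.6, 16.4, 25.1 and 19.2 CPM in SPZ_EJ, with a log2 fold change of 0.92 ± 0.30 (adjusted p = 0.0170). Its groups did not overlap although it was not called, and it was called higher under 3 of the other scalings or feature sets. Saurata1B054775 (beta-6 chain) lay between 0.332 and 1.43 CPM in HGC and between 0 and 2.40 CPM in SPZ_EJ. The beta-5 chain Saurata1B057112 did not pass the filter, with 1, 0, 0 and 0 counts in HGC 1 to 4 and 63, 0, 0 and 13 in SPZ_EJ 1 to 4.

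The tubulins of centrioles and of the sites where microtubules start were lower or not called. Of 3 features, 2 were called lower, where 31.9% of all tested mRNA features were, and none higher. Saurata1B006806 (gamma-1 chain), part of the ring complex that starts microtubules, was at 168, 178, 149 and 155 CPM in HGC and 32.3, 29.3, 38.2 and 44.0 CPM in SPZ_EJ, 4.52-fold lower (log2 fold change -2.18 ± 0.26, adjusted p = 2.79e-05). Saurata1B007305 (epsilon chain), a tubulin needed for the triplet microtubules of centrioles, was at 53.2, 73.2, 55.3 and 42.8 CPM in HGC and 11.9, 4.03, 7.20 and 6.99 CPM in SPZ_EJ, 7.43-fold lower (log2 fold change -2.89 ± 0.37, adjusted p = 5.38e-05). Both showed wide gaps between the groups. Saurata1B053272 (delta chain), another centriole tubulin, was at 5.21, 2.08, 4.40 and 4.71 CPM in HGC and 5.05, 3.05, 5.64 and 5.90 CPM in SPZ_EJ, with a log2 fold change of 0.26 ± 0.45 (adjusted p = 0.618). Its groups overlapped, and no difference was detectable.

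Most features for enzymes that add glutamate chains to tubulin fell. Of 8 polyglutamylase features 7 were tested. Of these, 6 were called lower, where 31.9% of all tested mRNA features were, none was called higher and 1 was not called. The median log2 fold change was -5.72, or -5.39 when the feature with 0 counts in SPZ_EJ is set at its bound. The sum of the class was 1304, 871, 1100.1 and 911 CPM in HGC 1 to 4 and 69.3, 323, 287 and 190.2 CPM in SPZ_EJ 1 to 4. In SPZ_EJ most of that sum came from TTLL11.

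Saurata1B014750 (probable polyglutamylase TTLL9), an enzyme needed for normal sperm flagella in mice, was at 682, 502, 603 and 476 CPM in HGC and 12.5, 13.5, 6.47 and 10.4 CPM in SPZ_EJ, 52.7-fold lower (log2 fold change -5.72 ± 0.36, adjusted p = 1.44e-06). Saurata1B048786 (probable polyglutamylase TTLL1), the catalytic subunit of a polyglutamylase complex in mice, was at 119.6, 96.1, 93.2 and 69.7 CPM in HGC and 0.696, 0.650, 0.502 and 0.411 CPM in SPZ_EJ, 165-fold lower (log2 fold change -7.37 ± 0.38, adjusted p = 1.44e-06). This was the largest fall with counts in both groups among all 50 tested members. A second TTLL1 feature, Saurata1B056714, had 31, 23, 43 and 11 counts in HGC 1 to 4 and 0 counts in all 4 SPZ_EJ libraries. Against a floor of 3 counts over the SPZ_EJ group, 0.0357 CPM, it was at least 41.8-fold lower in SPZ_EJ.

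TTLL5 and TTLL7 were also lower, and were chosen for description after their values were seen. Saurata1B033330 (TTLL5), an enzyme that in mice is needed for male fertility, was at 238, 98.8, 142 and 155 CPM in HGC and 2.26, 5.39, 4.35 and 3.15 CPM in SPZ_EJ (log2 fold change -5.39 ± 0.43, adjusted p = 2.31e-06). A second TTLL5 feature, Saurata1B016167, was at 161, 66.2, 97.2 and 104 CPM in HGC and 1.39, 2.14, 0.893 and 2.15 CPM in SPZ_EJ (log2 fold change -6.02 ± 0.45, adjusted p = 1.77e-06). The TTLL5 features followed each other library by library in HGC, with replicate 1 highest and replicate 2 lowest in each. Saurata1B017814 (TTLL7), which prefers beta-tubulin in mammals, was at 17.2, 21.2, 29.1 and 16.9 CPM in HGC and 1.25, 1.04, 1.06 and 1.01 CPM in SPZ_EJ (log2 fold change -4.26 ± 0.38, adjusted p = 4.26e-06). The spermatozoa libraries of TTLL7 were closely spaced and all lay below the HGC range.

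TTLL11 (Saurata1B035494), which lengthens glutamate chains, did not follow the other polyglutamylases. It was at 83.6, 85.4, 133 and 89.6 CPM in HGC and 50.6, 299, 273 and 173 CPM in SPZ_EJ, and was not called (log2 fold change 1.02 ± 0.46, adjusted p = 0.0683). SPZ_EJ replicate 1 lay below every HGC library and the other 3 SPZ_EJ libraries above every HGC library. Without SPZ_EJ replicate 1 the log2 fold change was 1.21 (adjusted p = 0.00398) and it was called higher, as it also was when libraries were scaled by their size alone. Saurata1B005259 (probable polyglutamylase TTLL2) did not pass the filter, with 0, 2, 2 and 2 counts in HGC 1 to 4 and 15, 15, 0 and 2 in SPZ_EJ 1 to 4.

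Both monoglycylases fell. TTLL3 attaches the first glycine to tubulin, a modification found mainly in cilia and flagella. Saurata1B050529 (TTLL3) was at 553, 196, 256 and 395 CPM in HGC and 7.55, 16.2, 11.3 and 5.58 CPM in SPZ_EJ, 34.5-fold lower (log2 fold change -5.11 ± 0.49, adjusted p = 6.98e-06). Saurata1B021628 (TTLL3) was at 266, 82.1, 111 and 138 CPM in HGC and 2.85, 3.57, 3.29 and 2.06 CPM in SPZ_EJ, 50.7-fold lower (log2 fold change -5.67 ± 0.46, adjusted p = 2.62e-06). HGC replicate 1 was highest and replicate 2 lowest for both features, the order also seen for TTLL5. An enzyme that lengthens glycine chains in some mammals, polyglycylase TTLL10 (Saurata1B029786), has a product name that the membership rule does not take in. It is added here with its values known. It was at 246, 67.1, 99.4 and 169.7 CPM in HGC and 2.05, 9.75, 2.51 and 2.38 CPM in SPZ_EJ (log2 fold change -5.13 ± 0.66, adjusted p = 4.93e-05), with HGC replicate 1 again highest and replicate 2 lowest.

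Tubulin tyrosine ligase, which restores the terminal tyrosine of alpha-tubulin, was the only modifying enzyme among the members that was called higher. This feature, Saurata1B034689, was at 10.6, 6.83, 5.07 and 9.77 CPM in HGC and 26.8, 28.8, 21.4 and 17.1 CPM in SPZ_EJ, 2.92-fold higher (log2 fold change 1.55 ± 0.35, adjusted p = 0.00213). The groups did not overlap, and the call was lost without HGC replicate 2, 3 or 4 (adjusted p of 0.0214, 0.0227 and 0.0103) and without the filter (adjusted p = 0.183). A feature named tubulin tyrosine ligase 12 (Saurata1B036586) was at 2.36, 1.10, 1.16 and 4.07 CPM in HGC and 8.56, 3.05, 5.80 and 7.31 CPM in SPZ_EJ, with a log2 fold change of 1.51 ± 0.56 (adjusted p = 0.0308), and was not called. Its SPZ_EJ replicate 2 lay within the range of HGC. It was called higher when libraries were scaled by size alone, in a fit of protein-coding features only, and at the looser adjusted p below 0.05. It was placed with the tyrosine ligases by its product name, and whether its protein acts as one was not tested.

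**Figure D4:**
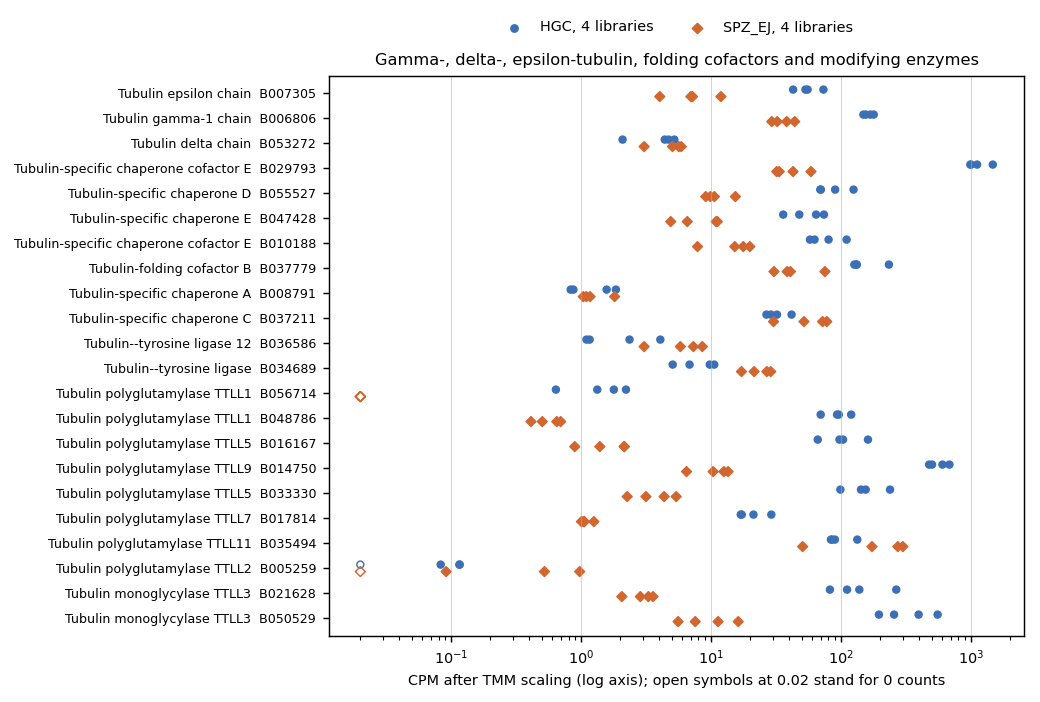
Level in CPM after TMM scaling (x axis, log scale) of every gamma-, delta- and epsilon-tubulin, folding cofactor and modifying enzyme in each of the 4 HGC libraries (circles) and 4 SPZ_EJ libraries (diamonds), with open symbols for 0 counts. TTLL1, TTLL3, TTLL5, TTLL7 and TTLL9 have every SPZ_EJ library to the left of every HGC library, TTLL11 has SPZ_EJ libraries on both sides of HGC, and tubulin tyrosine ligase has SPZ_EJ to the right.

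Features named as folding cofactors, proteins that assemble newly made alpha- and beta-tubulin into dimers, were lower for the most part. Of 7 features, all tested, 5 were called lower, where 31.9% of all tested mRNA features were. None was called higher and 2 were not called, and the median log2 fold change of the 7 was -2.36. Saurata1B029793, named chaperone cofactor E, had the most counts and the largest fall of the class. It was at 1470.5, 999, 988 and 1114 CPM in HGC and 42.7, 58.7, 33.4 and 32.0 CPM in SPZ_EJ, 27.4-fold lower (log2 fold change -4.78 ± 0.35, adjusted p = 1.76e-06). The others were chosen for description with their values known. The second feature named chaperone cofactor E (Saurata1B010188) was at 110.4, 62.5, 80.2 and 57.7 CPM in HGC and 7.87, 15.2, 19.9 and 17.7 CPM in SPZ_EJ. This name differs from that of chaperone E below. Whether the 2 features that carry it encode a cofactor that folds tubulin was not tested. Chaperone D (Saurata1B055527), which binds beta-tubulin, was at 125, 90.1, 69.2 and 69.9 CPM in HGC and 15.4, 9.10, 10.6 and 9.87 CPM in SPZ_EJ. Chaperone E (Saurata1B047428) was at 47.7, 64.2, 73.8 and 35.9 CPM in HGC and 11.2, 6.56, 10.9 and 4.89 CPM in SPZ_EJ. All 3 were called lower with log2 fold changes of -2.98 to -2.36 and without overlap.

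Cofactor B (Saurata1B037779), which receives alpha-tubulin early in folding, was at 131, 233, 132 and 126 CPM in HGC and 75.1, 40.8, 30.5 and 38.5 CPM in SPZ_EJ (log2 fold change -1.75 ± 0.36, adjusted p = 0.00111). HGC replicate 2 was the highest library by far, and the call was lost when libraries were scaled by size alone (adjusted p = 0.0717) and in a fit of protein-coding features only (adjusted p = 0.0120). Chaperone C (Saurata1B037211), which acts with cofactors D and E on the assembled dimer, was at 32.1, 41.6, 26.7 and 28.8 CPM in HGC and 30.2, 77.6, 72.1 and 51.8 CPM in SPZ_EJ, and was not called (log2 fold change 0.84 ± 0.33, adjusted p = 0.0418). SPZ_EJ replicate 1 lay within the HGC range and the other 3 above it, and under both of those alternatives it was called higher. Chaperone A (Saurata1B008791), a carrier of beta-tubulin, was at 1.57, 1.85, 0.831 and 0.872 CPM in HGC and 1.81, 1.04, 1.17 and 1.10 CPM in SPZ_EJ, overlapping throughout.

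Features for proteins that act on or with tubulin without being members showed mostly lower RNA levels as well. A list of 61 such features was formed from product names (end-binding and other microtubule-associated proteins, gamma-tubulin complex components, deglutamylases, deacetylase, prefoldins). The microtubule-associated serine/threonine kinases entered it by the start of their name, and the features named from it were chosen with their values known. Of the 46 that passed the filter, 31 were called lower, 3 higher and 12 were not called, with a median log2 fold change of -3.09, where 31.9% of all tested mRNA features were called lower and 23.9% higher and their median was -0.29. Without HGC replicate 1 or HGC replicate 3 only 1 was called higher.

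Features of the list for enzymes that remove tubulin modifications were lower in spermatozoa. All 7 tested features were called lower, where 31.9% of all tested mRNA features were. The cytosolic carboxypeptidases, which cut glutamate chains, were represented by 1 feature each for types 1, 2, 5 and 6, and all 4 were called lower with log2 fold changes of -5.92 to -3.90. Cytosolic carboxypeptidase 5 (Saurata1B047791), which in mammals removes the branch-point glutamate, was at 269, 164, 223 and 194 CPM in HGC and 3.83, 3.83, 4.80 and 1.60 CPM in SPZ_EJ (log2 fold change -5.92 ± 0.42, adjusted p = 1.54e-06). Cytosolic carboxypeptidase 2 (Saurata1B055438) was at 569, 424, 513 and 403 CPM in HGC and 39.3, 34.4, 27.5 and 26.9 CPM in SPZ_EJ (log2 fold change -3.90 ± 0.29, adjusted p = 1.86e-06). Each type kept a wide gap between the groups. Both vasohibin-2 features, whose protein removes the terminal tyrosine of alpha-tubulin, were called lower, with log2 fold changes of -6.00 ± 0.79 and -5.62 ± 0.54. Histone deacetylase 6 (Saurata1B028615), which also deacetylates alpha-tubulin, was at 19.8, 10.5, 23.1 and 9.82 CPM in HGC and 1.67, 1.69, 0.391 and 0.594 CPM in SPZ_EJ (log2 fold change -3.85 ± 0.59, adjusted p = 1.65e-04).

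Among proteins that bind tubulin or microtubules, stathmin (Saurata1B011584), which sequesters tubulin dimers, was at 3795, 2835, 2977 and 2757 CPM in HGC and 50.8, 111, 65.0 and 47.6 CPM in SPZ_EJ (log2 fold change -5.49 ± 0.42, adjusted p = 2.05e-06). A second feature named stathmin, Saurata1B028424, was at 2.43, 3.47, 1.79 and 3.49 CPM in HGC and 0.0696, 0.195, 8.82 and 15.6 CPM in SPZ_EJ and was not called (log2 fold change 1.14 ± 1.14, adjusted p = 0.39). Its SPZ_EJ replicates 3 and 4 lay above every HGC library and replicates 1 and 2 below, so the groups were not separate as they were for the first. The end-binding protein EB1 (Saurata1B033480), which tracks growing microtubule ends, was at 185, 492, 268 and 214 CPM in HGC and 55.4, 34.4, 36.9 and 28.9 CPM in SPZ_EJ (log2 fold change -2.90 ± 0.38, adjusted p = 6.31e-05). Gamma-tubulin complex components were called lower in 6 of 7 tested features, where 31.9% of all tested mRNA features were. Component 5 (Saurata1B045125), the one not called, lay between 13.4 and 22.7 CPM in HGC and between 2.47 and 26.3 CPM in SPZ_EJ. These ranges overlapped. All 3 features called higher were echinoderm microtubule-associated protein-like proteins. Saurata1B008729 (type 1) was at 4.21, 4.28, 3.41 and 5.81 CPM in HGC and 41.5, 33.0, 34.8 and 39.3 CPM in SPZ_EJ (log2 fold change 3.07 ± 0.31, adjusted p = 9.23e-06). Saurata1B037344 (type 6) was at 0.286, 0, 0.249 and 1.22 CPM in HGC and 6.54, 2.47, 3.35 and 7.63 CPM in SPZ_EJ (log2 fold change 3.50 ± 0.92, adjusted p = 0.00556), and Saurata1B005225 (type 3) at 0.143, 0.174, 0.0415 and 0.116 and 2.26, 0.650, 1.28 and 0.731 CPM (log2 fold change 3.36 ± 0.71, adjusted p = 0.00147). Further features with the names of types 1 and 6 (Saurata1B034776 and Saurata1B001231) were called lower, with log2 fold changes of -2.30 ± 0.39 and -5.59 ± 0.97, so these names too covered both directions.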

How the data were processed

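RNA of 4 HGC and 4 SPZ_EJ libraries, each from a pool of 3 males, was reverse transcribed from oligo-dT primers, amplified by PCR and sequenced without strand information. The authors aligned the reads to their own seabream reference with STAR 2.5.3a and deposited RSEM 1.3.0 expected counts per gene, as whole numbers that were not normalized. Groups and replicate numbers came from the labels. Columns were matched to libraries by name, not by order.

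The expected counts were analysed with edgeR 4.0.16 in R 4.3.3 (filterByExpr with the group, TMM, glmQLFit, glmQLFTest) over all features that passed the filter, and SE was taken as the size of the log2 fold change over the root of its F statistic. The fit was tested on simulated data in which few features changed, with as many up as down. That setting does not cover the large share of features called here. The floor for 0 counts was 3 counts over a group. Since PCR copies reads, this floor speaks for counting error alone. Named in each class were the member with the most counts, the called member with the largest log2 fold change in each direction among those without overlap and with a mean of at least 20 counts per library, every tested member of classes of 3 or fewer, every called alpha- and beta-tubulin, and members with 0 counts in a whole group. The members, this rule and the lists of partners and cell type markers were chosen with earlier results of these data known. Where pools were not of separate fish, p-values measure only the spread between these libraries. No pair of libraries agreed within counting noise. Same-numbered HGC and SPZ_EJ libraries were treated as unpaired, since nothing states that they share males. Alternatives were other scalings, DESeq2 1.42.0, other filters and thresholds, protein-coding features only, omission of the 20 most abundant features or of each library, and a replicate block. No sequences of the members were used. Figures were drawn with Python 3.11.15 and matplotlib 3.10.9.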

Additional observations from a re-analysis of the deposited data

Results flagged for a closer look

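In groups of 4 libraries, the gap between the highest or lowest library and its neighbour was divided by the range of the group and compared with Dixon's 95% critical value of 0.829, in groups with a mean of at least 20 counts. Of 93 such tests, 4 passed, 1 in SPZ_EJ and 3 in HGC, where chance alone gives about 1 in 20. Alpha-1 chain Saurata1B052675 was high in SPZ_EJ replicate 2 at 201 CPM, with the others at 170.5 to 173 CPM (ratio 0.927). Alpha chain Saurata1B054866 was high in HGC replicate 4 at 6.28 CPM, with the others at 0.868 to 1.14 CPM (ratio 0.949). Folding cofactor B (Saurata1B037779) was high in HGC replicate 2 at 233 CPM, with the others at 126 to 132 CPM (ratio 0.946). TTLL11 (Saurata1B035494) was high in HGC replicate 3 at 133 CPM, with the others at 83.6 to 89.6 CPM (ratio 0.878).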

How the results depend on the processing

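Over 19 alternatives, 36 of the 41 called members, 9 higher and 27 lower, kept their call wherever they could be tested, and no member was called in the opposite direction. The 2 beta-1 features are among the 20 most abundant features and were not tested without these. Leaving out 1 library at a time gave 9 to 13 members called higher and 28 to 29 called lower. It gave 2740 to 3682 mRNA features called higher and 4434 to 5336 called lower, and 1 to 3 partner features called higher and 30 to 31 called lower. Members held 4.25 to 4.50% of the mRNA counts in HGC and 0.531 to 0.576% in SPZ_EJ with 1 library left out, and 3.70% and 0.384% of all counts. With the replicate block 12 members were called higher and 28 lower, the beta-4 feature losing its call, and 3267 mRNA features were called higher and 4526 lower. Same-numbered libraries correlated at 0.117, 0.0155, 0.0125 and 0.0818 in their deviations from the group means. Other pairs of an HGC and an SPZ_EJ library gave -0.148 to 0.155. These values cannot show whether pools share males. A fit of protein-coding features only called 15 members higher and 27 lower, and 4738 and 4071 mRNA features. Counting depth limits the features with few counts, such as the beta-2A feature and the beta-7 feature Saurata1B006179. The causes of these differences were not tested.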
